A study of Homo sapiens with 4 samples.

Results

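The genes described here encode the chaperones, oxidoreductases, stress sensors, degradation factors and translocation subunits of the endoplasmic reticulum (ER). A list of 36 genes was matched by symbol to the identifiers of the count files on the primary chromosomes, with ERO1L standing for the gene now named ERO1A. All 36 were found among the 63677 counted genes, and all 36 passed the filter on low counts that left 15398 genes for testing. The cells were IMR90, human fetal lung fibroblasts, transfected with RNAiMAX for 72 h. The 2 control libraries received a non-targeting siRNA (NTC) and the 2 knockdown libraries siRNA against HMGB1, a chromatin protein of the high-mobility group. The study's methods name 2 different siRNAs for the transfection of IMR90. In each group replicate 1 was the isolate I90-10 and replicate 2 the isolate I90-79, both at passage 5, so that each isolate contributed 1 library to each group. The libraries were made from poly(A) RNA of whole cultures, in which fewer cells of a type and less RNA per cell cannot be told apart.

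Secreted and membrane proteins enter the ER through the Sec61 channel, lose their signal peptide to signal peptidase, and fold with the help of BiP (encoded by HSPA5), the lectin chaperones calnexin and calreticulin, and protein disulfide isomerases. Proteins that do not fold are passed back to the cytosol and degraded, a process called ER-associated degradation (ERAD). When unfolded protein builds up, the membrane sensors IRE1 (ERN1), PERK (EIF2AK3) and ATF6 start the unfolded protein response. IRE1 splices the mRNA of the transcription factor XBP1, PERK slows translation and favours ATF4, and ATF6 is cut in the Golgi to release a transcription factor. ATF6 and XBP1 then switch on chaperone and ERAD genes. Fibroblasts rely on this machinery to secrete collagen. Counts per gene cannot show the spliced form of XBP1 or the phosphorylation and cleavage of the sensors.

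The libraries held between 29861687 and 35317010 counted reads. Levels are given as CPM, counts relative to library size after scaling with the trimmed mean of M-values (TMM), and both libraries of a group are given each time (n = 2). HMGB1 was at 181 and 237 CPM in the control libraries and at 16.0 and 18.9 CPM in the knockdown libraries, 12.0-fold lower (log2 fold change −3.59, standard error 0.19, edgeR's adjusted p = 0.0075). The fibroblast markers COL1A1, COL1A2, COL3A1, THY1, PDGFRA and VIM summed to 18229 to 33474 CPM in the control libraries and 20777 to 32438 CPM in the knockdown libraries. They differed in sign upon knockdown. THY1 was at 423 and 200 CPM in controls and at 229 and 93.3 CPM in knockdowns. Its log2 fold change was −0.95 (edgeR's adjusted p = 0.297, and 0.00031 with the replicate block). PDGFRA (0.58) and COL3A1 (0.40) were higher, and COL1A1 (−0.15), COL1A2 (−0.10) and VIM (−0.09) lower. All 4 leukocyte markers had at most 10 counts in each library, and the 4 epithelial markers summed to at most 0.715 CPM. Of the endothelial markers that were matched, CDH5 was at 0 in all 4 libraries, TEK stood between 131 and 149 CPM, and VWF was at 1.36 and 0.923 CPM in controls and at 4.16 and 2.59 CPM in knockdowns (log2 fold change 1.57, edgeR's adjusted p = 0.0681, and 0.0036 with the replicate block).

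Some promoters of this gene family carry sequence elements that were described with the pathway. The ER stress response element (ERSE) reads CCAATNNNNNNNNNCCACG, where N is any base, ERSE-II reads ATTGGNCCACG, and the unfolded protein response element (UPRE) was searched as TGACGTGG, each on both strands. The search covered RefSeq promoters (GRCh38.p14), from 250 bases before to 50 bases after each start site, which were found for 33 members and not for PDIA3, DERL1 and SPCS1. An ERSE lay in the promoters of 25 of 27305 genes (0.0916%), and 7 of these were members (CALR, CANX, CRELD2, HSP90B1, HSPA5, PDIA6 and XBP1). ERSE-II lay in those of 19 genes (0.0696%), among them HERPUD1, HYOU1 and SDF2L1. The UPRE lay in those of 253 genes (0.927%), of which HYOU1 and SSR3 were members. The windows of the main chaperones, of XBP1 and of HERPUD1 are shown because they carry the elements that group these genes, with the element in capitals and written 5′ to 3′ on the strand of the gene.
HSPA5, chr9:125241356-125241444, minus strand, ERSE at −66 to −48: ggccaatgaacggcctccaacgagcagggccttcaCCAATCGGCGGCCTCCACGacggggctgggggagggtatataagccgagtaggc
HSP90B1, chr12:103930181-103930269, plus strand, ERSE at −194 to −176: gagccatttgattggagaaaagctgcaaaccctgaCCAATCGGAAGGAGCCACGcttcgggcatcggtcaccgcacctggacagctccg
HSP90B1, chr12:103930286-103930374, plus strand, ERSE on the opposite strand at −89 to −71: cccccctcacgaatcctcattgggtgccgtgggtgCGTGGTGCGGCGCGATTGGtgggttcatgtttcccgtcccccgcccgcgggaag
XBP1, chr22:28800568-28800656, minus strand, ERSE at −52 to −34: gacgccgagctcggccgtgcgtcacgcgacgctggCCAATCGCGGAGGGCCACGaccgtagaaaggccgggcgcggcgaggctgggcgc
HYOU1, chr11:119057345-119057425, minus strand, ERSE-II on the opposite strand at −185 to −175: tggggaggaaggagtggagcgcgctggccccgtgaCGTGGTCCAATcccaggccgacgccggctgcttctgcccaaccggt
HERPUD1, chr16:56931990-56932070, plus strand, ERSE-II at −117 to −107: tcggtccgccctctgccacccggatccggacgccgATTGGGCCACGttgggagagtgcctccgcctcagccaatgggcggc
In HYOU1 the UPRE overlaps the ERSE-II shown, and a further ERSE-II on the opposite strand at −79 to −69 is not shown. A match of letters is a description of the promoter and does not show that a factor was bound in these cells.

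The question was how the ER folding machinery responded when HMGB1 was depleted. Upon HMGB1 knockdown, 19 members were higher and 17 lower, with a median log2 fold change of 0.015, against −0.0054 over all genes tested. After removal of a factor of unwanted variation (RUVs) 12 were higher and 24 lower, with a median of −0.11. With 1 library left out, 1 isolate stands in only 1 group. The split then ranged from 24 higher and 12 lower, without control replicate 2, to 13 higher and 23 lower. The latter was found without control replicate 1 (median −0.12) or knockdown replicate 2. The largest values belonged to SEL1L (−1.31), SSR1 (−1.27), CANX (−0.81) and SEC61G (−0.69), which were lower, and to SEC61B (0.89), ERO1L (0.80) and ERN1 (0.80), which were higher. HSPA5, the usual readout of the response, was at −0.26, and at −0.58 after RUVs. In both isolates 17 members were higher and 17 lower, and XBP1 and SPCS3 had opposite signs in the isolates.

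**Figure D1:**
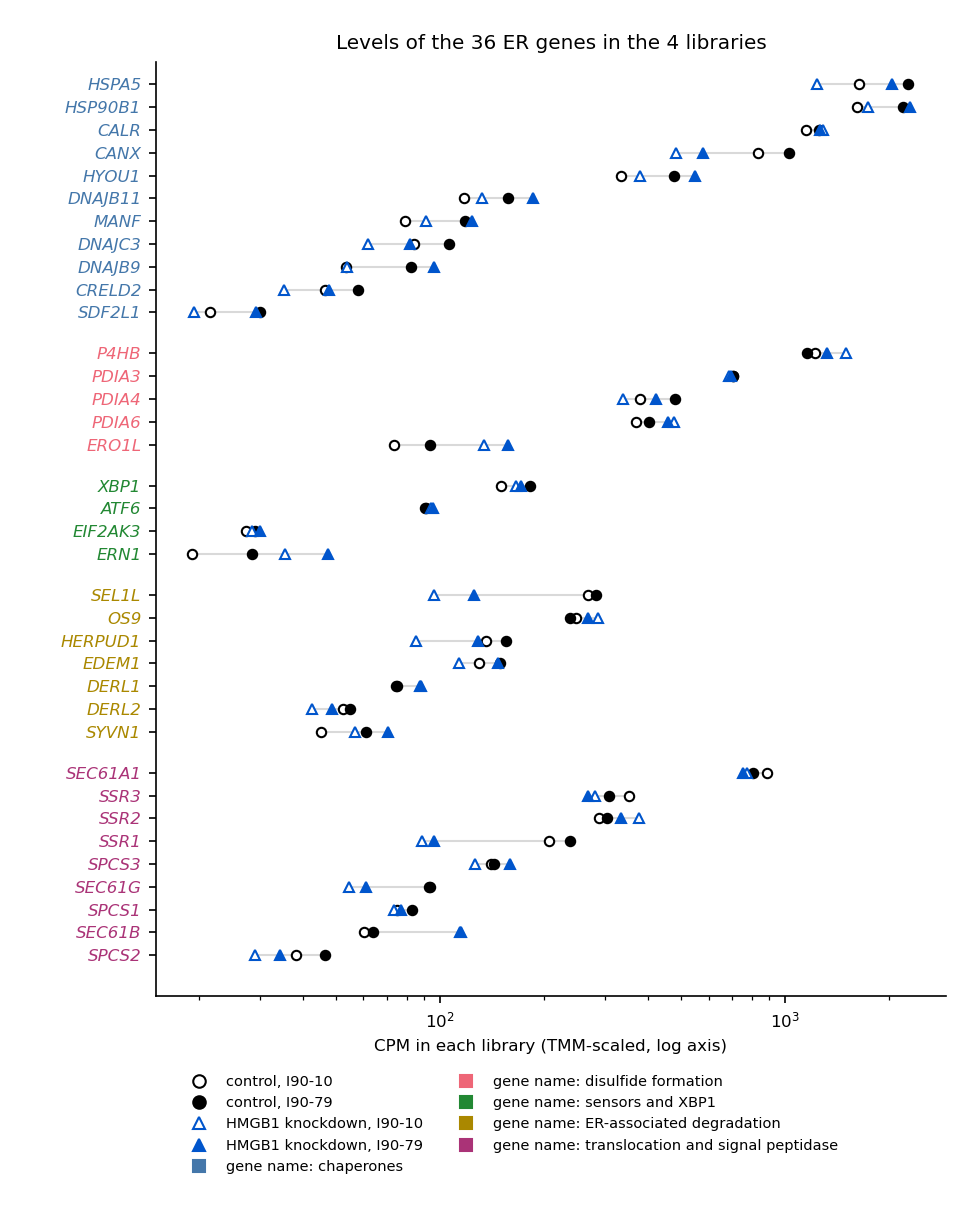
Level of each of the 36 ER genes in each library (CPM, log axis), with controls as circles and knockdowns as triangles, I90-10 open and I90-79 filled. For SEL1L, SSR1, CANX and SEC61G both triangles lie to the left of both circles, and for SEC61B, ERO1L and ERN1 both lie to the right.

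A gene was called regulated where the adjusted p was under 0.01 and the log2 fold change exceeded 0.6 in either direction. With edgeR and no term for the isolate, 0 members were called up- and 0 downregulated. In the same fit 0.0649% of all genes tested were called up- and 0.136% downregulated, so that few genes of any kind passed. With the isolate as a replicate block, 3 members were called upregulated (ERO1L, ERN1 and SEC61B) and 4 downregulated (CANX, SEL1L, SSR1 and SEC61G), beside 6.68% and 7.84% of all genes. DESeq2 without the isolate called 2 up and 4 down, beside 4.73% and 5.31% of all genes. RUVs followed by DESeq2 called 2 up and 5 down, beside 4.96% and 5.39% of all genes, the added gene being HERPUD1. At an unadjusted p below 0.05 there were 8 members without the block, 22.2% of the list beside 28.3% of all genes. At an adjusted p below 0.05 and any fold there were 5, 13.9% beside 8.44%. The groups did not overlap for 10 members that were higher upon knockdown (27.8%, beside 29.8% of all genes) and for 11 that were lower (30.6%, beside 30.2%). The shares at the unadjusted p and without overlap were thus near or below those of all genes.

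**Figure D2:**
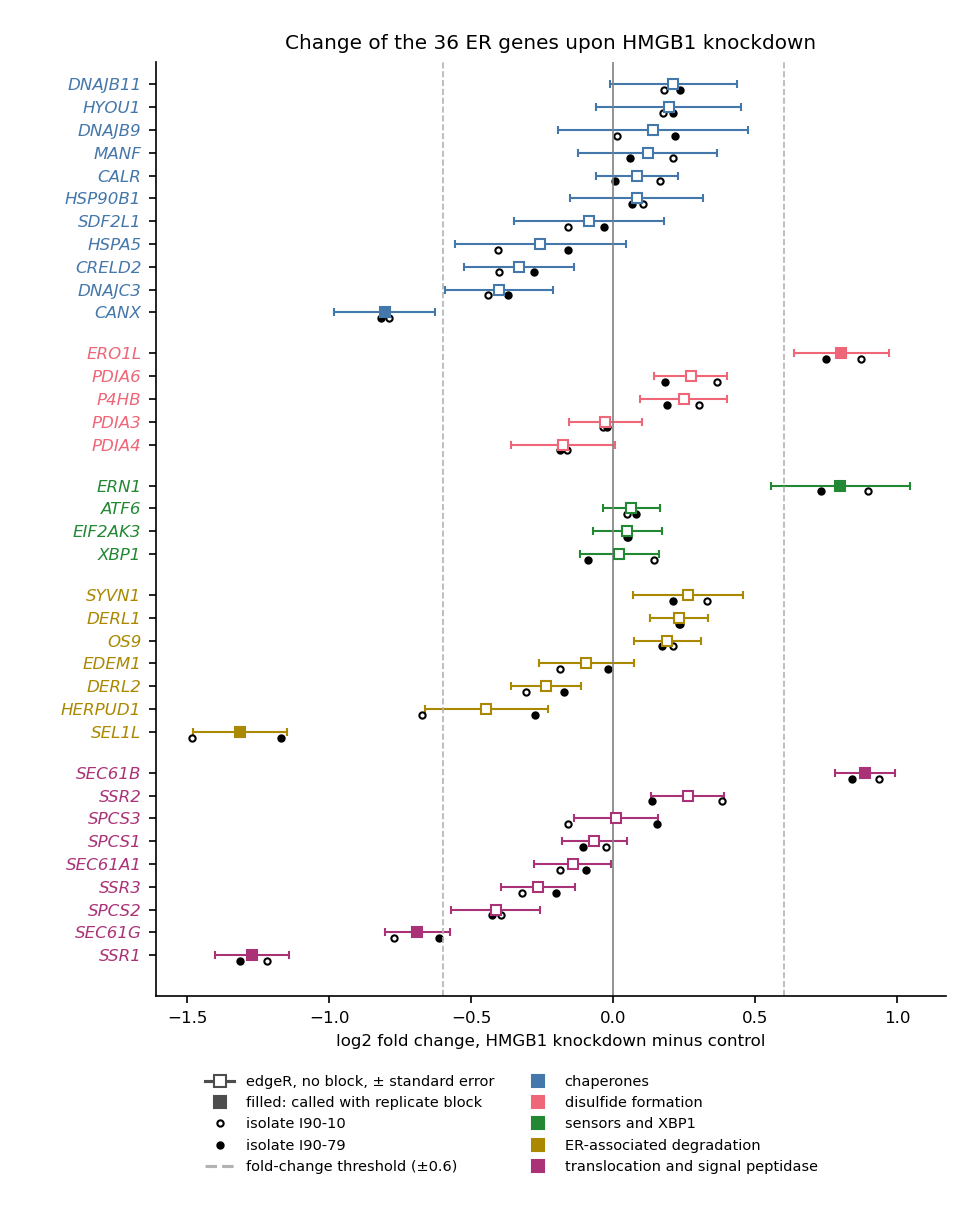
Log2 fold change of each member, knockdown minus control, by role. Squares with bars are the edgeR estimate ± its standard error, filled where the gene was called with the replicate block, and small circles are the values in I90-10 (open) and I90-79 (filled). Dashed lines mark ±0.6, and 7 members with filled squares lie beyond them.

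Among the 11 chaperones and their cofactors, CANX alone had an unadjusted p below 0.05. CANX encodes calnexin, the membrane-bound lectin that holds newly made glycoproteins until they fold. CANX (ENSG00000127022, hg19 chromosome 5 from 179105629 to 179157926) was at 835 and 1023 CPM in the control libraries and at 483 and 580 CPM in the knockdown libraries. Both knockdown libraries were below both controls, and the difference was nearly equal in I90-10 (−0.79) and I90-79 (−0.82). CANX was thus 1.75-fold lower (log2 fold change −0.81, standard error 0.18), with an adjusted p of 0.0554 in edgeR and of 0.0006 with the replicate block (log2 fold change −0.80). Its soluble relative CALR, calreticulin, which binds the same sugars, was at 1148 and 1255 CPM in controls and 1286 and 1261 CPM upon knockdown. That left CALR at a log2 fold change of 0.08 (adjusted p = 0.743 in edgeR), with both knockdown libraries above both controls by less than the fold threshold.

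HSPA5 encodes BiP, the Hsp70 of the ER lumen, and per length it stood at 418 and 581 RPKM (CPM per kilobase of exon in the files) in the control libraries, the highest mean of the 36 members, with CALR at 423 and 462 RPKM. In CPM, HSPA5 was at 1635 and 2272 in the control libraries and at 1235 and 2036 in the knockdown libraries. The groups overlapped, because the knockdown of I90-79 exceeded the control of I90-10. This gave a log2 fold change of −0.26 (standard error 0.30, edgeR's adjusted p = 0.620), and it was −0.40 in I90-10 and −0.16 in I90-79. With the replicate block the value was −0.28 (adjusted p = 0.074). After RUVs it was −0.58 (DESeq2's adjusted p = 0.0010), short of the fold threshold and lower than in either isolate. Without knockdown replicate 1 it lay on the other side of 0, at 0.058. That fit leaves I90-10 in the controls only, so the isolates are not balanced in it. HSP90B1, the Hsp90 of the ER (GRP94), was at 1618 and 2194 CPM in controls and at 1742 and 2298 CPM in knockdowns, with a log2 fold change of 0.08 (adjusted p = 0.848 in edgeR).

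The remaining chaperones spanned log2 fold changes from −0.40 for DNAJC3 (P58IPK, a J-domain co-chaperone of BiP) to 0.21 for DNAJB11 (ERdj3, another). DNAJC3 was at 84.1 and 106 CPM in controls and 61.9 and 82.0 CPM in knockdowns, with the higher knockdown just below the lower control (edgeR's adjusted p = 0.236, and 0.014 with the block). HYOU1, the large Hsp110-type exchange factor of BiP, was at 0.20, DNAJB9 (ERdj4) at 0.14, and the secreted stress factor MANF at 0.12. CRELD2 was at −0.33 and SDF2L1, a partner of DNAJB11, at −0.09. In this role 6 genes were higher and 5 lower, with a median of 0.084. The isolates gave the same split, with 6 higher in both, 5 lower in both and 0 of opposite sign. The split depended on the processing, since after RUVs CALR alone was higher and 10 were lower (median −0.25). HSP90B1, HYOU1, DNAJB9, DNAJB11 and MANF were then lower, although each was higher upon knockdown within both isolates. HYOU1, for example, was at −0.073 after RUVs, but at 0.18 in I90-10 and 0.21 in I90-79. A fit without 1 library leaves 1 isolate in only 1 group, so the isolates are not balanced in it. Without knockdown replicate 2, 1 was higher and 10 lower, and without control replicate 1, 2 were higher and 9 lower. Without control replicate 2 or knockdown replicate 1, 8 were higher and 3 lower.

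The sensors came next in the pathway. ERN1 encodes IRE1, the kinase and RNase of the ER membrane, and had the lowest level per length of the 36 members (1.76 and 2.62 RPKM in controls). ERN1 (ENSG00000178607, hg19 chromosome 17 from 62116502 to 62208179) was at 19.1 and 28.5 CPM in the control libraries and at 35.6 and 47.3 CPM in the knockdown libraries. Both knockdown libraries lay above both controls, and within each isolate the knockdown was higher (0.90 in I90-10 and 0.73 in I90-79). ERN1 was 1.74-fold higher (log2 fold change 0.80, standard error 0.24), with an adjusted p of 0.109 in edgeR and of 0.0010 with the replicate block. ERN1 was not called by DESeq2 without the isolate or after RUVs, where its value was 0.56.

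The other sensors had values near 0. EIF2AK3, which encodes PERK, was at 27.4 and 29.2 CPM in controls and 28.4 and 30.2 CPM in knockdowns, with overlapping groups and a log2 fold change of only 0.05 (standard error 0.12, edgeR's adjusted p = 0.822). Of its exonic bases 15.1% overlap a gene on the other strand. ATF6 was at 91.2 and 90.2 CPM in controls and at 94.4 and 95.3 CPM in knockdowns. Its groups did not overlap, but they differed by a log2 value of only 0.06 (standard error 0.10, edgeR's adjusted p = 0.720). XBP1, the transcription factor whose mRNA IRE1 splices, was at 150 and 183 CPM in controls and at 166 and 172 CPM in knockdowns, both inside the range of the controls. The log2 fold change of XBP1 was 0.02 (standard error 0.14, edgeR's adjusted p = 0.937), with 0.15 in I90-10 and −0.09 in I90-79. All 4 genes of this role were on the positive side, except XBP1 after RUVs (−0.063) and without control replicate 1 (−0.12), and ERN1 was the one with an unadjusted p below 0.05.

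For disulfide bond formation, ERO1L stood apart from the isomerases it serves. ERO1L encodes the oxidase that recharges protein disulfide isomerase with oxidizing equivalents. ERO1L (ENSG00000197930, hg19 chromosome 14 from 53106634 to 53162618) was at 73.4 and 93.7 CPM in the control libraries and at 134 and 157 CPM in the knockdown libraries. Neither knockdown library reached down to the controls, and the difference was 0.87 in I90-10 and 0.75 in I90-79. ERO1L was 1.75-fold higher (log2 fold change 0.80, standard error 0.17), with an adjusted p of 0.0488 in edgeR and of 0.00059 with the replicate block. Its paralogue ERO1LB (now ERO1B), which is no member of the list, was also higher, at 4.43 and 7.08 CPM in controls and 8.86 and 17.6 CPM in knockdowns (log2 fold change 1.20, edgeR's adjusted p = 0.131, and 0.0013 with the block).

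The 4 isomerases ranged from −0.18 for PDIA4 (ERp72) to 0.27 for PDIA6 (P5), and none had an unadjusted p below 0.05 in edgeR. PDIA6 was at 370 and 403 CPM in controls and at 477 and 457 CPM in knockdowns, so that the groups did not overlap, and 25.2% of its exonic bases overlap ATP6V1C2 on the other strand. P4HB, the canonical protein disulfide isomerase and a subunit of collagen prolyl hydroxylase, was at 1221 and 1161 CPM in controls and at 1505 and 1323 CPM in knockdowns (log2 fold change 0.25, edgeR's adjusted p = 0.339). PDIA3 (ERp57), the partner of calnexin and calreticulin, was at −0.03, and 18.9% of its exonic bases overlap a gene on the other strand.

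Of the 7 ERAD genes, SEL1L was the one with an unadjusted p below 0.05. SEL1L is the membrane adaptor that links substrates to the ubiquitin ligase HRD1, encoded by SYVN1. SEL1L (ENSG00000071537, hg19 chromosome 14 from 81937893 to 82000205) was at 269 and 282 CPM in the control libraries and at 96.1 and 126 CPM in the knockdown libraries. Both knockdown libraries lay far below both controls, with −1.48 in I90-10 and −1.17 in I90-79. This was 2.49-fold lower (log2 fold change −1.31, standard error 0.16), with an adjusted p of 0.0179 in edgeR and of 0.00013 with the replicate block (log2 fold change −1.33). SYVN1 was at 45.2 and 60.8 CPM in controls and at 56.8 and 70.4 CPM in knockdowns, with overlapping groups and a value of 0.26 (edgeR's adjusted p = 0.423), the highest log2 fold change of the role.

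HERPUD1, a membrane protein that joins the HRD1 complex and is a sensitive target of the response, was at 136 and 156 CPM in controls and at 85.4 and 129 CPM in knockdowns. Both knockdown libraries were lower, but I90-10 (−0.67) differed more than I90-79 (−0.27). The log2 fold change was −0.45 (standard error 0.22, edgeR's adjusted p = 0.245, and 0.017 with the block), and the gene was called only after RUVs, at −0.66. Of the rest, DERL2, which helps move substrates back across the membrane, was at −0.24 and its paralogue DERL1 at 0.23. The mannose-trimming factor EDEM1 was at −0.09, and the lectin OS9 at 0.19 (13.5% of its exonic bases overlap another gene). The role had 3 members higher and 4 lower, with a median of −0.094.

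The widest spread of the 5 roles lay in translocation, where subunits of the same complex differed in sign. The Sec61 channel is built from a pore subunit (SEC61A1) and a pair of small subunits (SEC61B and SEC61G). SEC61B (ENSG00000106803, hg19 chromosome 9 from 101984346 to 101992897) was at 60.2 and 63.9 CPM in controls and at 115 CPM in each knockdown library, well clear of the controls. The log2 fold change was 0.89 (standard error 0.11), 1.85-fold higher, with an adjusted p of 0.0168 in edgeR and of 0.0004 with the replicate block. SEC61G (ENSG00000132432, hg19 chromosome 7 from 54819943 to 54827667) was at 93.1 and 93.6 CPM in controls and at 54.5 and 61.2 CPM in knockdowns, both lower. Its log2 fold change was −0.69 (standard error 0.12), 1.61-fold lower, with an adjusted p of 0.0320 in edgeR and of 0.0015 with the replicate block. SEC61A1 was at 886 and 809 CPM in controls and at 778 and 757 CPM in knockdowns (log2 fold change −0.14, edgeR's adjusted p = 0.538). Per length, SEC61B and SEC61G were nearly level in the control libraries (50.6 and 53.7 against 50.5 and 50.8 RPKM), and in the knockdown libraries SEC61B was at 96.7 and 96.2 RPKM and SEC61G at 29.6 and 33.2 RPKM.

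The TRAP complex, which sits beside the channel and helps some signal sequences to insert, includes SSR1, SSR2 and SSR3. SSR1 (ENSG00000124783, hg19 chromosome 6 from 7268539 to 7347679) was at 206 and 238 CPM in controls and at 88.6 and 95.7 CPM in knockdowns. The difference was similar in the isolates, with −1.22 in I90-10 and −1.31 in I90-79, and the groups were far apart. The log2 fold change was −1.27 (standard error 0.13), 2.41-fold lower, with an adjusted p of 0.0131 in edgeR and of 8.9e-05 with the replicate block. SSR2 was at 288 and 305 CPM in controls and at 376 and 335 CPM in knockdowns (log2 fold change 0.26), whereas SSR3 was at 352 and 309 CPM in controls and at 282 and 269 CPM in knockdowns (−0.26, both with an edgeR adjusted p of 0.253). The TRAP subunits in the list of members therefore had values on both sides of 0, and SSR1 was the one of them called with the block.

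Of the signal peptidase subunits, SPCS2 (ENSG00000118363, hg19 chromosome 11 from 74660292 to 74690076) was at 38.4 and 46.4 CPM in controls and at 29.2 and 34.5 CPM in knockdowns, without overlap. Its log2 fold change was −0.41 (standard error 0.16) with an unadjusted p of 0.044 and an adjusted p of 0.163 in edgeR, and it was not called with the block (adjusted p = 0.016). Of the 50-base pieces of SPCS2, 16.1% also occur in another gene, so reads there may have been left out of unique counts. SPCS1 was at −0.07, with 16.9% of its exonic bases overlapping GLT8D1 on the other strand, and SPCS3 at 0.01. Translocation had 3 members higher and 6 lower, with a median of −0.143.

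Around the 36 members, 90 other genes of the same pathway were read in the same fit, in lists for the PERK and ATF4 arm, sensor processing, folding, ERAD, translocation with glycosylation, and traffic between ER and Golgi. All 90 were tested, with 49 higher, 41 lower and a median log2 fold change of 0.034. EdgeR without the block called 0 up and 0 down, with 33 at an unadjusted p below 0.05 (15 higher and 18 lower), 36.7% beside 28.3% of all genes. DESeq2 called 4 up and 9 down, beside 4.73% and 5.31% of all genes, and edgeR with the block 6 up and 13 down, beside 6.68% and 7.84%. STT3A, the catalytic subunit of the oligosaccharyltransferase that adds sugars during translocation, was at 239 and 257 CPM in controls and at 60.6 and 71.5 CPM in knockdowns. This gap was the widest among the 90 genes, 3.75-fold (log2 fold change −1.91, standard error 0.14, edgeR's adjusted p = 0.0102, and 2.7e-05 with the block). SRP9, a subunit of the signal recognition particle, was at 141 and 139 CPM in controls and at 44.6 and 59.7 CPM in knockdowns (−1.43, edgeR's adjusted p = 0.0161, and 0.00016 with the block). TUSC3, another oligosaccharyltransferase subunit, was at 0.62 and SRP19, another particle subunit, at −0.87, both called with the block.

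MBTPS2 encodes the site-2 protease that releases the transcription factor part of ATF6. It was at 42.5 and 47.4 CPM in controls and at 14.1 and 16.3 CPM in knockdowns, 2.96-fold lower (log2 fold change −1.57, standard error 0.14, edgeR's adjusted p = 0.0111, and 6.6e-05 with the block). CREB3L1, a transcription factor that the same protease cuts, was at −0.88 and was called with the block. In ERAD, the ubiquitin-conjugating enzyme UBE2G2 was at −0.95, while UFD1L, a cofactor of the extracting ATPase, was at 0.63 and AUP1, which recruits UBE2G2, at 0.75, all called with the block. In ER exit, SAR1A, the GTPase of the COPII coat, was at −0.87, the cargo receptor LMAN1 at −0.64 and the retrieval receptor KDELR3 at −0.63, again called with the block.

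In the PERK arm the outputs did not move together. DDIT3, the stress factor CHOP, was at 27.1 and 35.5 CPM in controls and at 22.4 and 36.4 CPM in knockdowns, with overlapping groups (log2 fold change −0.09, edgeR's adjusted p = 0.859). ATF4 was at 419 and 416 CPM in controls and at 341 and 368 CPM in knockdowns (−0.24, edgeR's adjusted p = 0.274), although ATF4 is controlled largely at translation. PPP1R15A, the phosphatase subunit GADD34 that ends the arm, was at 195 and 248 CPM in controls and at 249 and 340 CPM in knockdowns (0.41, edgeR's adjusted p = 0.259). Its lower knockdown library was just above its higher control. TRIB3, a target of ATF4 and CHOP, was at −0.72, SESN2 at −0.78, and NUPR1 at −0.70 (−0.21 after RUVs, and −1.13 to −0.14 with 1 library left out), while EIF2S1, the translation factor that PERK phosphorylates, was at 0.68. These 4 were called with the block, and TRIB3 and EIF2S1 had edgeR adjusted p of 0.0488 and 0.0420 without it.

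The isolates differed in the level of many of these genes in both groups. This comparison was added after the values had been seen. Of the 36 members, 26 (72.2%) were higher in I90-79 than in I90-10 both in the control and in the knockdown libraries, beside 33.5% of all genes tested and 46.7% of the 90 other ER genes. Of the 11 chaperones 10 did so, CALR being the exception. In the term for the isolate from edgeR's fit with the replicate block, the median log2 difference, I90-79 minus I90-10, was 0.457 over the chaperones, 0.205 over the members, 0.045 over the 90 other ER genes and 0.006 over all genes. In the other folding genes 36.8% were higher in I90-79 in both groups, with a median of −0.011. Translocation and signal peptidase genes had a median of 0.086.

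DNAJB9, a strong target of XBP1, was at 53.2 CPM in I90-10 and 82.4 in I90-79 among the controls, and at 53.8 and 95.9 among the knockdowns. It was 1.66-fold higher in I90-79 (log2 difference 0.73, standard error 0.10, edgeR's adjusted p = 0.0081), and it was the only member called for the isolate, beside 0.442% of all genes called higher and 1.23% called lower in I90-79. HSPA5 was 1.51-fold higher in I90-79 (log2 difference 0.60, standard error 0.10, edgeR's adjusted p = 0.0166), which did not pass the threshold. HYOU1 (0.52), SDF2L1 (0.54), MANF (0.51) and ERN1 (0.49) had isolate differences of similar size. DDIT3 of the PERK arm was at 0.54, but the 11 genes of that arm had a median of 0.074. Of these 11, 6 were higher in I90-79 in both groups, 2 were lower in both, and 1 was called lower. For HSPA5, the difference between isolates was larger than that between knockdown and control. The summed level of the fibroblast markers was lower in I90-79, with the 6 genes summing to 33474 CPM in I90-10 and 18229 CPM in I90-79 among the controls, and to 32438 and 20777 CPM among the knockdowns. COL1A1 alone was at 12559 and 5665 CPM among the controls and at 10573 and 5823 CPM among the knockdowns. PDGFRA went against the sum among the controls (576 CPM in I90-10 and 818 CPM in I90-79) and was at 1062 and 1026 CPM among the knockdowns. Each isolate gave 1 library per group, so an isolate and its culture cannot be told apart, and the part of the marker difference in the chaperone levels was not tested.

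**Figure D3:**
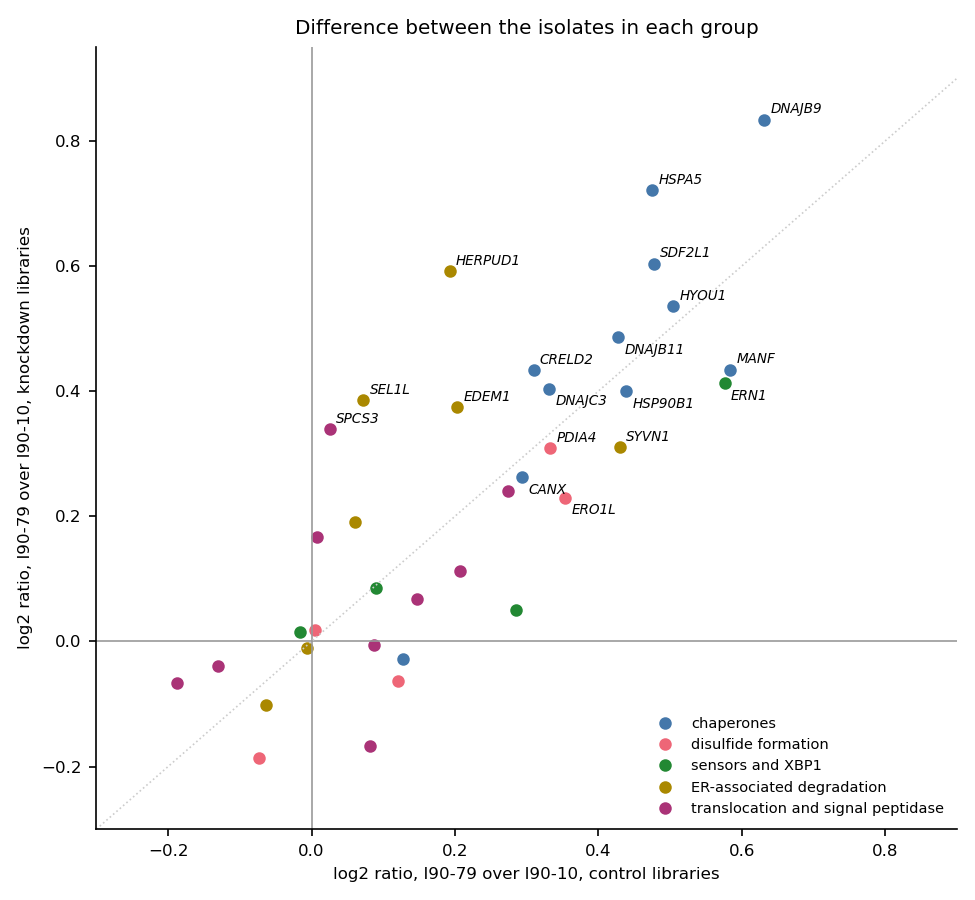
Log2 ratio of I90-79 over I90-10 for each member in the control libraries (horizontal) and in the knockdown libraries (vertical), coloured by role, with equality as a dotted line. In the upper right quadrant lie 26 of 36 members, and DNAJB9 and HSPA5 are the topmost.

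The genes with an ERSE or ERSE-II in the promoter windows were split upon HMGB1 knockdown in a way that depended on the processing. Of these 10 members 5 were higher and 5 lower, with a median log2 fold change of −0.032 and a range from −0.81 (CANX) to 0.27 (PDIA6). The 23 members whose promoters held neither had 13 higher and 10 lower, with a median of 0.050. After RUVs 2 of the 10 (CALR and PDIA6) were higher and 8 lower, with a median of −0.25, beside 9 higher and 14 lower of the 23, with a median of −0.092. Among those 8 were HSP90B1 and HYOU1, which were higher upon knockdown within both isolates. Without control replicate 2 or knockdown replicate 1, which leaves the isolates unbalanced, 7 of the 10 were higher and 3 lower. CANX carries the element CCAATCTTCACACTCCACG, and it was the only one of the 10 called with the block. SEL1L, SSR1, SEC61B, SEC61G, ERO1L and ERN1, the other members called with the block, had neither element in the windows searched. In the isolate term, 8 of the 10 members with an element were higher in I90-79 in both groups (median log2 difference 0.381), as were 16 of the 23 without (median 0.182).

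Another sequence feature moved with the change. The 6-base word GCAGTT in 3′ untranslated regions (UTRs) was chosen from earlier results on these same data, so the values that follow are a description and not independent of that choice. Over 12337 genes with an annotated 3′ UTR, those with 0 copies had a median log2 fold change of 0.069, those with 1 copy −0.099 and those with 2 or more copies −0.26. Of these classes 42.9%, 58.4% and 68.7% of the genes were lower upon knockdown, so the trend was not particular to the members. Among the members, the 20 without a copy had a median of 0.13 (15 higher and 5 lower) and the 8 with 1 copy a median of −0.029 (4 higher and 4 lower). The 8 with 2 or more copies had a median of −0.33, and all 8 were lower (CANX, DNAJC3, PDIA3, SEL1L, EDEM1, DERL2, SSR1 and SSR3). The length of the 3′ UTR moved with the number of copies, with member medians of 631.5, 2663 and 3804 bases in the 3 classes. Over all genes the medians were 886, 2196 and 4189.5 bases. The copies of SEL1L and CANX and the first copies of SSR1 are shown with the word in capitals, 10 bases on each side, on the strand of the transcript (hg19), since these 3 members had the lowest values of the list.
SEL1L, chr14:81941488-81941513: agatttgagtGCAGTTggtacagtac
SEL1L, chr14:81941066-81941091: cttgctgccaGCAGTTtgtgaatggt
CANX, chr5:179155812-179155837: gtaaatacttGCAGTTgtgatataaa
CANX, chr5:179156036-179156061: gagatgagttGCAGTTtttataatag
CANX, chr5:179156812-179156837: agaattgactGCAGTTgaacagacta
SSR1, chr6:7289837-7289862: atgtatgtgaGCAGTTggtcttacca
SSR1, chr6:7289108-7289133: tatttttaaaGCAGTTaactaatttt
SSR1 held 7 copies in a 3′ UTR of 8721 bases, CANX 3 in 2997 bases and SEL1L 2 in 5425 bases. SEC61G, which was lower, held 0 copies, as did SEC61B and ERN1, which were higher, and ERO1L held 1. Not all of the 90 other ER genes had such a 3′ UTR. Of those that did, 57 held 0 copies (median 0.10), 18 held 1 copy (median 0.080) and 11 held 2 or more (median −0.64). Of these 11, 9 were lower, among them STT3A with 2 copies and MBTPS2 and UBE2G2 with 3 each. The 2 that were higher were TUSC3 (0.62) and TMBIM6 (0.56), each with 2 copies. The part of the word and that of UTR length in these differences was not tested.

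**Figure D4:**
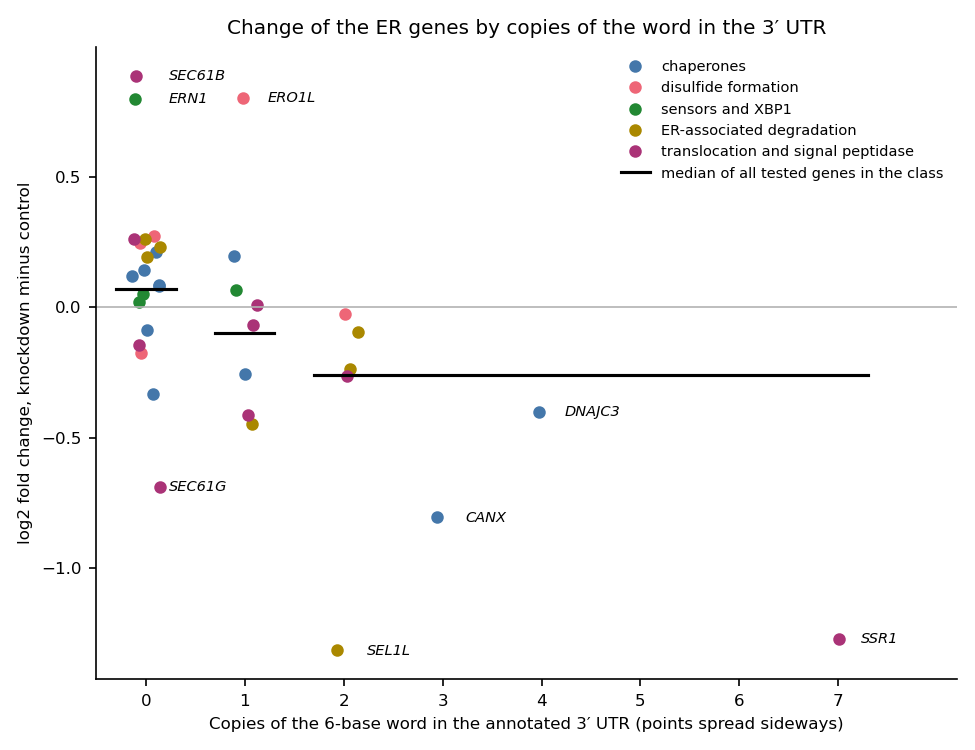
Log2 fold change of each member, knockdown minus control, against the number of copies of the word in its annotated 3′ UTR, coloured by role, with black bars for the median of all tested genes in the classes of 0, 1 and 2 or more copies. The members with 2 or more copies all lie below 0, and SEC61G lies at −0.69 without a copy.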

How the data were processed

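RNA-seq counts of 2 control and 2 HMGB1 knockdown IMR90 libraries were used. Per the labels and the study's methods, the authors made TruSeq libraries from poly(A) RNA, mapped paired-end reads to hg19 with STAR at default settings and deposited raw counts of unique reads per gene from featureCounts, 1 library per file. Tool versions, the strand setting and whether a pair counts once are not given in the sources used here. A gene and its antisense partner may therefore share reads. The depth was 29869338 and 35317010 (control) and 29861687 and 31086475 (knockdown) counted reads, and 0 reads lay on the 5941 genes outside the primary chromosomes.

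Gene symbols came from a reference table of gene names. Counts were tested with edgeR 4.0.16 (limma 3.58.1, R 4.3.3): filterByExpr, TMM, the quasi-likelihood test without a term for the isolate, and Benjamini-Hochberg adjustment over the 15398 genes tested. A call needed an adjusted p under 0.01 and a log2 fold change beyond 0.6 in either direction, as in the study. Standard errors were taken from the log2 fold change and the F statistic. The script was tested on simulated counts with a fixed spread and no difference between isolates. That test does not show how the fit performs where isolates differ, as they do here. The isolates pair the libraries across groups, and the isolate difference in controls had a correlation of 0.46 with that in knockdowns over 15398 genes. Both groups have 2 libraries, too few for an exact permutation test to go under 0.333 (two-sided), and p-values measure only the spread between these cultures.

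Alternatives were DESeq2 1.42.0, RUVs (written out from its description, 1 factor, all genes as controls) then DESeq2, edgeR with DESeq2's size factors or with upper-quartile factors, no filter, a minimum of 10 counts per library, the replicate block in edgeR or DESeq2, an adjusted p below 0.05, no fold threshold, and each library left out. The members and lists were chosen with earlier results of these data known, and the isolate comparison was added after the values had been seen. Values in every library were given for HSPA5, the sensors with XBP1, and members with an unadjusted p below 0.05 or called with the block. The others were given by role with the lowest and highest. Of the further pathway genes, those called were named, at most 4 per list by smallest p, plus DDIT3, ATF4 and PPP1R15A. Other members with values were chosen after these were seen. 3′ UTRs of at least 100 bases came from the canonical transcripts of GENCODE on hg19 and promoters from RefSeq (GRCh38.p14). Some of these 3′ UTRs reach past the ends of the counted genes. A copy of GCAGTT in SSR3 and the copies in SPCS1 and HERPUD1 lie in such parts, which were not counted.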

Additional observations from a re-analysis of the deposited data

Results flagged for a closer look

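XBP1 and SPCS3 differed in sign between the isolates. For XBP1 the log2 ratio of knockdown over control was 0.15 in I90-10 and −0.09 in I90-79, a difference of −0.23, I90-79 minus I90-10. For SPCS3, a subunit of signal peptidase, it was −0.16 in I90-10 (140 to 126 CPM) and 0.16 in I90-79 (143 to 159 CPM), a difference of 0.31. With 1 library of each isolate in each group, the difference was not tested.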

How the results depend on the processing

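The counts of members called depended on how the isolate and the spread were handled. In place of 0 up and 0 down, DESeq2 gave 2 up and 4 down, RUVs then DESeq2 2 and 5, no filter on low counts 3 and 4, the replicate block 3 and 4 in edgeR and 3 and 4 in DESeq2, and an adjusted p below 0.05 gave 2 and 3. Leaving out a library leaves 1 library in a group. In those fits the log2 fold change ranged from −1.52 to −1.14 for SEL1L and from −1.37 to −1.16 for SSR1. For the 90 other ER genes, in place of 0 and 0, the counts were 4 and 9 in DESeq2 and 2 and 11 after RUVs. They were 6 and 13 without a filter and with the block in edgeR or DESeq2, and 4 and 7 at an adjusted p below 0.05. Upper-quartile factors gave 1 down. Over all genes the calls went from 10 up and 21 down to 1028 and 1207 with the block and 967 and 1091 with the block in DESeq2. They were 728 and 818 in DESeq2, 763 and 830 after RUVs, and 1118 and 1275 of 27391 genes without a filter.

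The median of the members was 0.019 in DESeq2 and with its size factors in edgeR, 0.022 with upper-quartile factors, 0.023 without a filter, 0.0084 with at least 10 counts, 0.014 with the block and 0.018 with the block in DESeq2, but −0.11 after RUVs and −0.12 to 0.077 with a library left out. That of the other genes was 0.016 to 0.088 with a library left out. HMGB1 lay between −3.77 and −3.38 with a library left out, and it did not pass the threshold at −3.47 and −3.71, without knockdown replicate 1 and 2. The isolate term gave 2 members in DESeq2 in place of 1, and it could not be fitted with a library left out.

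Of the 36 members, 24 kept their sign under all 12 alternatives fitted. RUVs reversed HSP90B1 (−0.13), HYOU1 (−0.073), DNAJB9 (−0.25), DNAJB11 (−0.025), MANF (−0.13), XBP1 (−0.063) and SPCS3 (−0.082), and the block reversed SPCS3 (−0.00062). With a library left out the ranges were −0.66 to 0.058 for HSPA5, −0.13 to 0.32 for HSP90B1, −0.093 to 0.47 for HYOU1, −0.33 to 0.50 for DNAJB9, −0.048 to 0.44 for DNAJB11, −0.41 to 0.18 for SDF2L1, −0.14 to 0.44 for MANF, −0.33 to 0.0013 for PDIA4, −0.12 to 0.17 for XBP1, −0.29 to 0.079 for EDEM1, −0.14 to 0.0099 for SPCS1 and −0.17 to 0.17 for SPCS3. A fit without 1 library leaves 1 isolate in only 1 group, so the isolates are not balanced in it. HSP90B1, HYOU1, DNAJB9, DNAJB11 and MANF, which RUVs reversed, were higher upon knockdown within both isolates. The cause of the reversals was not tested. The 7 members called with the replicate block kept their direction under all 12 alternatives. The lowest count of a member was 558, for SDF2L1 in knockdown replicate 1. Standard errors did not follow the counts. They were 0.26 for SDF2L1 and 0.12 for EIF2AK3 (805 to 1075 counts), but 0.30 for HSPA5 (35659 to 83723 counts).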
